A study of Mus musculus with 2 samples.

Results

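The nuclear genes for the subunits of the mitochondrial oxidative phosphorylation complexes were followed in mouse bone marrow cultures given an androgen or its vehicle. Members were the gene symbols that start with Ndufa, Ndufb, Ndufc, Ndufs, Ndufv, Uqcr, Cox4 to Cox8 or Atp5, together with Sdha, Sdhb, Sdhc, Sdhd and Cycs, with at least 20 CPM over the filtered cells of either library. CPM are a gene's UMIs (unique molecular identifiers, which count captured RNA molecules) scaled to the total of the library or class. The 3′ libraries count a molecule once, at its end, and levels are not divided by transcript length. Of 32285 genes 95 symbols matched, and 85 reached that level, as did 6735 genes in all. They were 37 subunits of complex I and 6 of its assembly factors, 4 subunits of complex II, 8 of complex III, 12 of complex IV, 17 of complex V, and cytochrome c. The 10 symbols below the limit were Cox4i2, Cox6a2, Cox6b2, Cox7a1, Cox7b2, Cox8b, Cox8c, Ndufa4l2, Ndufaf1 and Ndufaf7. Just inside it were Ndufaf5, at 20.2 and 22.7 CPM with DHT and vehicle, and Ndufaf6, at 24.0 and 28.8 CPM. Just outside were Ndufaf7, at 14.0 and 12.3 CPM, and Ndufaf1, at 12.4 and 13.7 CPM.

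The marrow is labelled as from a wild-type male C57BL/6J mouse aged 3 months, and whether both cultures came from the same animal is not stated. For the initial 48 h the medium was depleted of hormones and held M-CSF at 5 ng/mL, a growth factor of the monocyte lineage. In the next 24 h M-CSF was raised to 100 ng/mL, and RANKL, which starts osteoclast formation, was added at 30 ng/mL with human TNF at 10 ng/mL, so both groups received the inflammatory cytokine. The DHT group had 5α-dihydrotestosterone, an androgen formed from testosterone, at 1 nM throughout, and the Vehicle group had ethanol. Only adherent cells were collected, and each group gave 1 droplet-based 3′ library. The libraries therefore compare 2 cultures, without replicates, and every comparison is a description by size. The question was whether the members differed between DHT and vehicle, by complex and by cell type.

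The respiratory chain of the inner mitochondrial membrane takes electrons from NADH at complex I and from succinate at complex II, passes them to complex III, and from there through cytochrome c to complex IV and oxygen. The protons pumped on the way drive complex V, the ATP synthase. Most subunits come from nuclear genes, while mitochondrial DNA encodes some core subunits of complexes I, III, IV and V and none of complex II. Osteoclasts are rich in mitochondria, and mature neutrophils hold few and rely mainly on glycolysis.

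After filtering there were 7708 DHT cells with 296659811 UMIs and 8590 Vehicle cells with 430858831, at medians of 30133 and 50833.5 UMIs per cell. Cells were grouped into 7 classes by marker genes, with the members left out of the clustering. The labels call the cells osteoclast precursors, but osteoclast-like cells were 27.9% of DHT cells (2151) and 52.1% of Vehicle cells (4475), and neutrophil-like cells were 22.3% (1719) and 11.6% (997). Low-UMI clusters left unnamed held 1048 and 435 cells. The libraries shared 33 barcodes, 18 of them among cells kept. Intervals in parentheses are 95% intervals that cover counting error only.

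Over all cells the members took 2.57% of DHT UMIs (7636736) and 2.82% of Vehicle UMIs (12161226). Their summed level was 25742 and 28226 CPM with DHT and vehicle, a ratio of 0.912 (0.911 to 0.913). No member was at least 1.5-fold higher or lower with DHT, where 5.48% of all genes tested were higher and 0.178% lower. The difference was small and spread over most members: 80 of 85 had a ratio below 1, where 55.9% of all genes did. The members' median log2 ratio was -0.14, against -0.02 for all genes. In a sum over all cells, fewer cells of a type and less RNA per cell cannot be told apart, so the classes are taken in turn.

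The members' summed level had a ratio below 1 in each of the 7 classes. In osteoclast-like cells it was 29282 and 29826 CPM, a ratio of 0.982 (0.981 to 0.983). In macrophage-like cells it was 20727 and 23752 CPM, a ratio of 0.873 (0.870 to 0.875), and in conventional dendritic cell-like cells 21962 and 25207 CPM, a ratio of 0.871 (0.865 to 0.878). Monocyte-like cells had a ratio of 0.945, granulocyte-monocyte progenitor-like cells 0.933, B cell-like cells 0.917 and neutrophil-like cells 0.908. The ratio was nearest to 1 in osteoclast-like cells and lowest in the dendritic cell-like and macrophage-like classes, with these exceptions among the settings tried. At Leiden resolution 0.3 progenitor-like cells (0.979) were nearer to 1 than osteoclast-like cells (0.976), and among cells with 10000 to 80000 UMIs neutrophil-like cells were lowest (0.859). In bins of UMIs per cell the order differed too, and dendritic cell-like cells were not binned. From 20000 to 40000 UMIs progenitor-like (0.808), neutrophil-like (0.843) and monocyte-like cells (0.884) lay below macrophage-like cells (0.897). Over their bins progenitor-like cells were at 0.808 to 0.930 and monocyte-like cells at 0.884 to 0.982.

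Other values differed between the libraries within these classes, and their part in the ratios was not tested. In dendritic cell-like cells the nuclear RNA Malat1 was at 13206 and 9653 CPM with DHT and vehicle, and Gm42418, a locus that collects ribosomal RNA reads, at 36459 and 19595 CPM. Gm42418 had a ratio above 1 in all 7 classes, from 1.15 in neutrophil-like to 1.86 in dendritic cell-like cells. The 11 neutrophil markers summed to 43226 and 29296 CPM in progenitor-like cells, where 10 were higher with DHT. In B cell-like cells they summed to 1179 and 8881 CPM, and none was higher with DHT. In monocyte-like cells 8 were higher, at 2821 and 2242 CPM, and in dendritic cell-like cells 8, at 2594 and 2475 CPM.

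**Figure D1:**
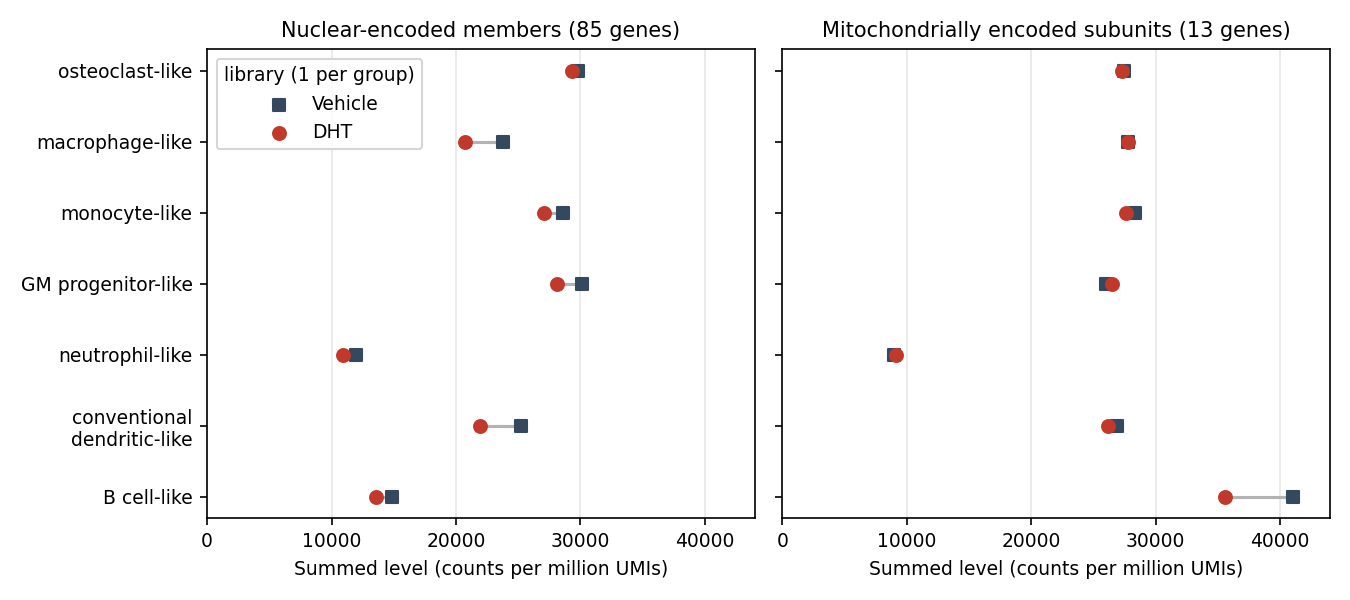
Summed level of the 85 members and of the 13 mitochondrially encoded subunits in each cell class, in CPM, with 1 point per library. The members lie lower with DHT in all 7 classes, while the mitochondrially encoded subunits differ most in B cell-like cells.

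Members with a ratio below 1 were more frequent than such genes overall in each class. They were 56 of 85 in osteoclast-like cells (34.5% of all genes), 76 of 84 in macrophage-like cells (48.5%), 69 of 84 in monocyte-like cells (37%) and 69 of 84 in progenitor-like cells (41.7%). In neutrophil-like cells they were 74 of 81 (41%), in dendritic cell-like cells 76 of 83 (50.2%) and in B cell-like cells 61 of 83 (47.2%). The denominators are the members with at least 20 CPM within the class. Short transcripts were below 1 more often than all genes, and 46 of the 85 members are under 1000 bases. Among other genes of that length the share below 1 was 73.1% in monocyte-like to 81.3% in macrophage-like cells. It was 79.1% in osteoclast-like and 78.8% in B cell-like cells, and the members' own shares by length are not given. Of 81 members tested in all 7 classes, 38 had a ratio below 1 in each and a further 23 in 6. The same counts over all genes are not given, so these cannot be set against them. Atp5k, the small e subunit of the ATP synthase, was the only member above 1 in all 7, with ratios from just over 1 to 1.19. The classes come from the same pair of libraries and are not independent of each other.

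At the 1.5-fold limit no member was called outside B cell-like cells. Of all genes tested 1.08% were that much higher and 0.0618% lower in osteoclast-like cells, 3.82% and 1.22% in macrophage-like cells, and 1.62% and 0.338% in monocyte-like cells. The shares were 1.15% and 0.251% in progenitor-like, 2.23% and 0.314% in neutrophil-like and 10.8% and 4.26% in dendritic cell-like cells. In B cell-like cells 1 of 83 members was higher (10.3% of all genes) and 1 lower (7.67%). Ndufa9, an accessory subunit of complex I, was at 37.3 and 14.6 CPM there, the Vehicle value from only 8 UMIs, a ratio of 2.56 (1.24 to 6.12). Ndufaf8, an assembly factor, was at 42.2 and 71.0 CPM, a ratio of 0.593 (0.405 to 0.885). Both rest on few UMIs, and neither gene reached the limit in another class.

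At a lower limit of 25% higher or 20% lower, no member was called over all cells or in osteoclast-like cells. The share of all genes at this limit is not given for either, so the absence of calls cannot be set against it. In macrophage-like cells 24 of 84 members were at least 20% lower, where 7.75% of all genes were, and in dendritic cell-like cells 21 of 83, where 17.5% were. Those lower were 5 of 81 in neutrophil-like (3.78%), 1 of 84 in monocyte-like (1.61%) and 1 of 84 in progenitor-like cells (1.71%). In B cell-like cells 11 of 83 were lower (19.1%) and 3 at least 25% higher (23.6%).

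The subunits encoded by mitochondrial DNA lay closer to 1 in most classes. Their sum had a ratio of 0.9922 (0.9909 to 0.9934) in osteoclast-like cells and 0.9982 (0.9958 to 1.001) in macrophage-like cells, at 27761 and 27811 CPM in the latter. It was 1.02 in progenitor-like, 1.02 in neutrophil-like, 0.974 in monocyte-like and 0.974 in dendritic cell-like cells. B cell-like cells differed, at 35577 and 41041 CPM, a ratio of 0.867 (0.854 to 0.880). Barcodes with over 10% mitochondrial UMIs had been removed, which caps this measure.

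In osteoclast-like cells the complexes lay on either side of 1. Complex I had a ratio of 0.961 (0.958 to 0.963) and complex IV of 0.961 (0.959 to 0.963), while complex V was at 1.001 (0.9987 to 1.003) and complex III at 1.005 (1.002 to 1.009). Complex II was at 1.07 (1.06 to 1.08), and cytochrome c at 1.06 (1.05 to 1.07). Under the 4 other scalings tried, complex II (1.03 to 1.07) and cytochrome c (1.02 to 1.05) kept a ratio above 1. Complexes III (0.966 to 0.9976) and V (0.962 to 0.9932) went below 1 in all of them. The median gene tested in these cells had a log2 ratio of 0.045, which complex II (log2 0.10) and cytochrome c (0.08) exceeded and the other complexes did not. Transcripts of Sdha, Sdhc and Cycs have 2900, 3171 and 3123 bases, and those of Sdhb and Sdhd 1142 and 1231. Other genes of 2000 to 4000 bases had a median log2 ratio of 0.064 in this class, and those under 1000 bases of -0.108. The part of length in the order of the complexes was not tested. All 11 osteoclast markers were also higher with DHT in this class, at a sum of 2601 and 2063 CPM, and 10 of 11 neutrophil markers, at 1101 and 449 CPM. Their part in the ratios was not tested. Within 6 bins of UMIs per cell the members' ratio here was 0.959 to 1.07, above 1 in the 2 bins under 20000 UMIs, with at most 86 DHT cells each, and below 1 in the 4 deeper ones.

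**Figure D2:**
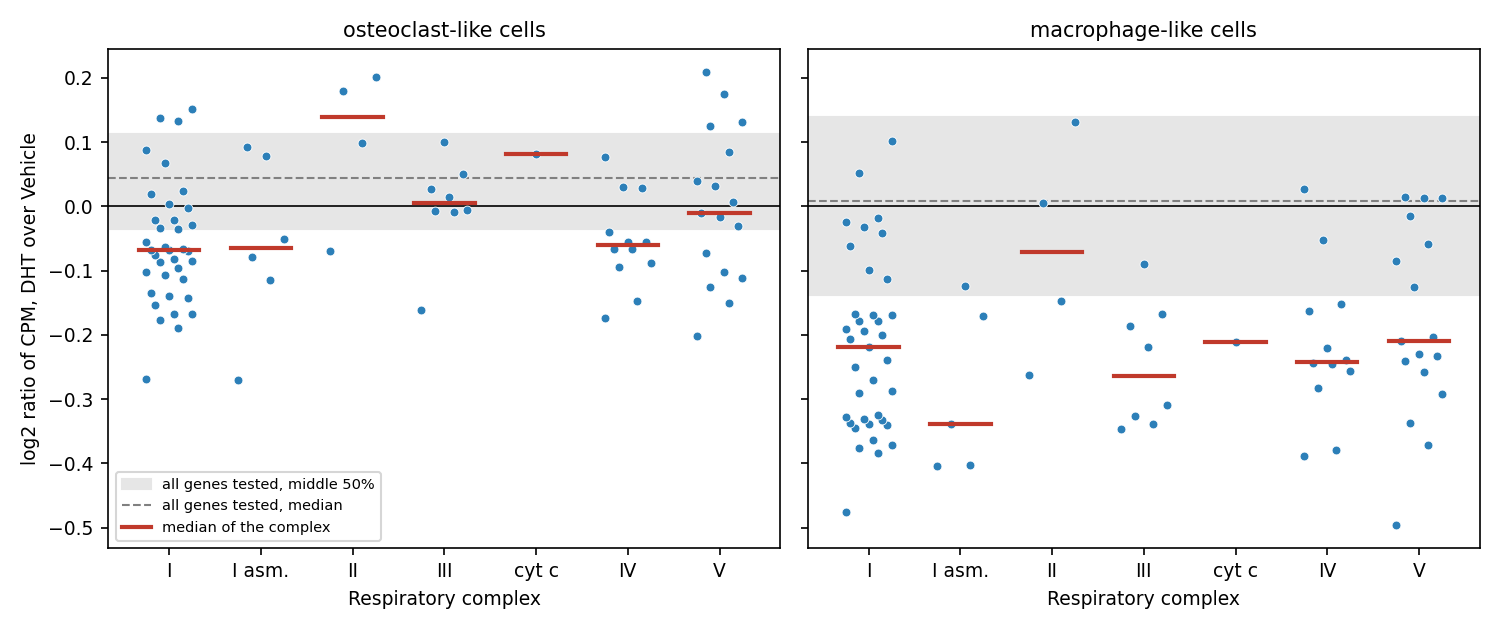
Log2 ratio of CPM, DHT over Vehicle, of each member (points) by complex in osteoclast-like and macrophage-like cells, with the median of each complex (red bars) and the middle 50% (grey) and median (dashed) of all genes tested. The members lie around the zero line in osteoclast-like cells (56 of 85 below) and mostly under it in macrophage-like cells (76 of 84 below).

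Complex II, succinate dehydrogenase, belongs to both the respiratory chain and the citric acid cycle. Sdha, its flavoprotein, was at 194 and 171 CPM with DHT and vehicle in osteoclast-like cells, a ratio of 1.13 (1.12 to 1.15). The membrane anchors Sdhc and Sdhd were at 168 and 146 CPM, a ratio of 1.15, and at 167 and 156 CPM, a ratio of 1.07. Sdhb, the iron-sulfur subunit, lay on the other side of 1, at 187 and 196 CPM, a ratio of 0.953. The 4 subunits had the same order in macrophage-like cells, with Sdhc at 1.095, Sdha at 1.004, Sdhd at 0.903 and Sdhb at 0.834.

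Complex I takes electrons from NADH. Ndufv1, its flavin-binding core subunit, was at 72.6 and 76.6 CPM in osteoclast-like cells, a ratio of 0.949, and Ndufs1, a large iron-sulfur core subunit, at 91.4 and 83.3 CPM, a ratio of 1.097. The lowest ratio among the 37 subunits was that of Ndufa13, an accessory subunit, at 210.2 and 253 CPM, a ratio of 0.830 (0.819 to 0.842). The highest was that of Ndufb1-ps, at 410.3 and 369 CPM, a ratio of 1.11, which the GENCODE annotation lists as a noncoding RNA at a bidirectional promoter. Ndufa13 was between 0.770 and 0.885 in all 7 classes, and Ndufb1-ps was above 1 in 6 of them. Ndufa13 overlaps Yjefn3 on the same strand, so reads of the pair may not be told apart. Over all cells the lowest was Ndufs7, an iron-sulfur core subunit, at 184 and 229 CPM, a ratio of 0.804. In osteoclast-like cells Ndufa2 had the most UMIs of the complex with DHT, at 468 and 460.4 CPM, and Ndufb8 with vehicle, at 427 and 469 CPM.

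The assembly factors help to build complex I and are not part of it. Ndufaf3 was at 28.5 and 34.4 CPM in osteoclast-like cells, a ratio of 0.830, and Ndufaf5 at 28.5 and 26.8 CPM, a ratio of 1.07, the lowest and the highest of the 6. Their sum had a ratio of 0.977 (0.967 to 0.988). Ndufaf5 reached 20 CPM in no class but this one. Over all cells Ndufaf6 was lowest, with a ratio of 0.832, and Ndufaf8 highest, with 0.929.

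Complex III passes electrons from ubiquinol to cytochrome c. Uqcrfs1, the Rieske iron-sulfur protein, was at 194 and 191 CPM in osteoclast-like cells, a ratio of 1.02, and the core proteins Uqcrc1 and Uqcrc2 had ratios of 0.9939 and 1.04. Uqcr11 was highest, at 700.4 and 653 CPM, a ratio of 1.07, and Uqcrb lowest, at 343 and 383 CPM, a ratio of 0.894. In macrophage-like cells all 8 subunits were below 1, from 0.786 for Uqcrb to 0.940 for Uqcr11. Over all cells Uqcrb was again lowest, with a ratio of 0.880, and Uqcrq, a small subunit, highest, with 0.949. Cycs, the soluble carrier that also takes part in apoptosis, was at 439 and 415 CPM in osteoclast-like cells. It was at 265 and 306 CPM in macrophage-like cells, a ratio of 0.864, and at 321 and 286 CPM in monocyte-like cells, a ratio of 1.12 (1.09 to 1.16).

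Complex IV reduces oxygen. Cox4i1, its regulatory subunit in most tissues, had the most UMIs of the complex in osteoclast-like cells, at 1001 and 1064 CPM, a ratio of 0.941. Cox8a was lowest, at 772 and 870.2 CPM, a ratio of 0.887, and Cox6a1 highest, at 391 and 371 CPM, a ratio of 1.05. Most of the complex lay just below 1. Cox5a and Cox5b had ratios of 0.936 and 0.903, Cox6c and Cox7a2 of 0.973 and 0.955, and Ndufa4, which was long counted with complex I, of 0.962. Over all cells Cox7a2l, which takes part in joining complexes III and IV into supercomplexes, was lowest, at 176 and 209 CPM, a ratio of 0.840. Tissue-restricted forms had few UMIs. Over all cells Cox4i2, the alternative to Cox4i1, was at 0.381 and 0.167 CPM, Ndufa4l2, a hypoxia-induced relative of Ndufa4, at 0.0270 and 0.0743 CPM, and the muscle form Cox7a1 at 4.61 and 5.60 CPM.

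Complex V makes ATP. Its alpha and beta subunits, Atp5a1 and Atp5b, were at 706 and 647 CPM (ratio 1.09) and 715 and 695 CPM (ratio 1.03) in osteoclast-like cells. Its highest and lowest ratios both belonged to genes of the c subunit, of which Atp5g1, Atp5g2 and Atp5g3 encode the same mature protein behind different import sequences. Copies of that protein form the ring that turns as protons pass. Atp5g3 was at 655 and 566 CPM, a ratio of 1.16 (1.15 to 1.17), the highest of the 85 members in this class. Atp5g1 was at 641 and 737 CPM, a ratio of 0.870 (0.863 to 0.877), and Atp5g2 at 564 and 606 CPM, a ratio of 0.931. Of the 3 genes Atp5g1 thus had the most UMIs with vehicle and Atp5g3 with DHT.

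The stretches ahead of the start sites of Atp5g3 and Atp5g1 are shown because these genes had the highest and the lowest ratio of the complex. They are RefSeq sequences of build GRCm38.p6 on the minus strand, 5′ to 3′, without bases that GENCODE places in an exon of these genes. Exons of other genes were not checked. Atp5g3 is shown for chr2:73911327-73911576 and Atp5g1 for chr11:96075671-96075881. Capitals mark a match, on the opposite strand, to TNAAGGTCA, a motif of estrogen-related receptors, from 52 to 44 bases before the start.
Atp5g3: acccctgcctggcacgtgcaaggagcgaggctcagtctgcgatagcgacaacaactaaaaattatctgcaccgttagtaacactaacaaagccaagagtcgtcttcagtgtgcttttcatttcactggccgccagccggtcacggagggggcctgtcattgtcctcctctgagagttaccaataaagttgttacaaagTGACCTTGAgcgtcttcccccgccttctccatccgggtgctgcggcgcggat
Atp5g1: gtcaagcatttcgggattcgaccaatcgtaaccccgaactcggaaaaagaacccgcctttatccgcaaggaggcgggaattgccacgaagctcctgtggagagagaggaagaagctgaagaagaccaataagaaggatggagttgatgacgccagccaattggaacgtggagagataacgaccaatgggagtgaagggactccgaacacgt
Of 5 motifs searched on both strands in the 250 bases before each RefSeq start, Atp5g3 held only this one and Atp5g1 none. Atp5g2 held the NRF1 motif from 42 to 33 bases before its start, in a stretch inside the annotated gene.

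RefSeq starts were found for 72 of the 85 members. The motif of the nuclear respiratory factor NRF1, searched as GCGCA, any base and GCGC, was before 13 of them (18.1%) and before 3.86% of 27025 starts of all genes. CCGGAAG, an ETS motif of the kind bound by GABPA, was before 12 (16.7%) and 7.05%, and ATGGCGG, bound by YY1, before 3 (4.17%) and 2.19%. TNAAGGTCA was before 2 (2.78%) and 1.14%, and the TATA box TATAAA before 6 (8.33%) and 12.97%. The starts of all genes were not limited to genes with at least 20 CPM, as the members were, so the shares rest on unlike sets. A match is a run of letters and no measure of binding in these cells.

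Atp5g1 and Atp5g2 had ratios below 1 in all 7 classes, and Atp5g3 in 3 of them. In macrophage-like cells Atp5g1 was at 368 and 519 CPM, a ratio of 0.709 (0.695 to 0.723), the lowest of the members tested there. Atp5g2 was at 434 and 510.2 CPM, a ratio of 0.851, and Atp5g3 at 402 and 399 CPM, a ratio of 1.009. Neutrophil-like cells had lower levels of all 3, with Atp5g1 at 71.3 and 90.8 CPM, Atp5g2 at 141 and 174 CPM and Atp5g3 at 93.0 and 96.7 CPM.

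**Figure D3:**
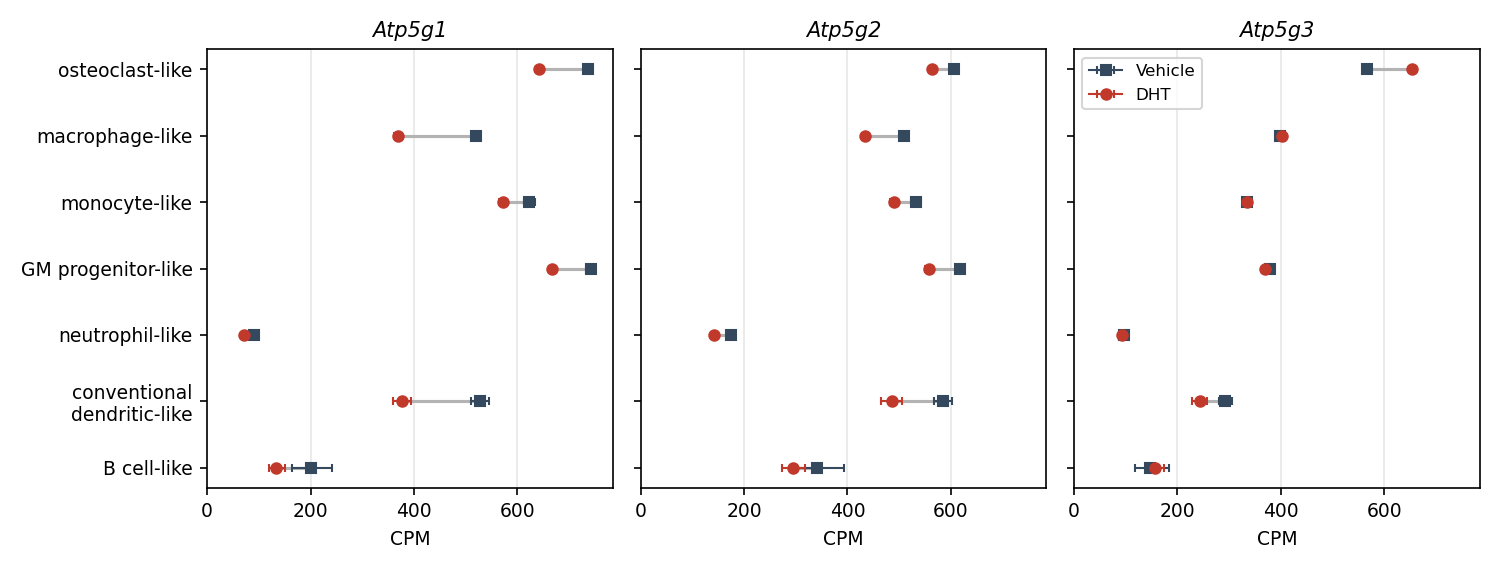
Level in CPM of the 3 genes of the ATP synthase c subunit in each class, with 1 point per library and intervals for counting error. Atp5g1 and Atp5g2 lie lower with DHT in all 7 classes, and Atp5g3 lies higher with DHT in osteoclast-like cells.

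Among the other subunits of complex V, Atp5k was at 495 and 439 CPM in osteoclast-like cells, a ratio of 1.13, and Atp5e, the epsilon subunit, had the most UMIs of the complex, at 866 and 862 CPM. Atp5d, the delta subunit, was at 444 and 493 CPM, a ratio of 0.901. Atpif1, the inhibitory factor of the enzyme, does not carry a member's symbol. It was at 940.1 and 1024 CPM, a ratio of 0.918.

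In macrophage-like cells every complex was below 1, here and under each other scaling. Complex I had a ratio of 0.868 (0.864 to 0.872), complex III of 0.858 (0.851 to 0.866), complex IV of 0.861 (0.857 to 0.866), complex V of 0.886 (0.882 to 0.891) and complex II of 0.956 (0.939 to 0.973). Ndufs8, an iron-sulfur core subunit, was lowest in complex I, at 57.8 and 80.3 CPM, a ratio of 0.719. Per cell, members took a median of 1.97% of UMIs with DHT (quartiles 1.67 and 2.25%) and 2.32% with vehicle (2.01 and 2.59%).

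Several other values differed between the libraries in this class. DHT cells had a median of 35794 UMIs and Vehicle cells of 51777, and within 6 bins of depth the members' ratio was 0.893 to 0.921. All 30 genes of a G2 and M phase list were below 1, with a summed ratio of 0.649. In cells with under 0.1% of UMIs from that list, the members' ratio was 0.857. Of the macrophage markers 8 of 9 were higher with DHT, at a sum of 2184 and 1134 CPM. All 11 neutrophil markers were higher, at 1529.6 and 550.2 CPM, and with free RNA subtracted the members' ratio was 0.873. Gm42418 was at 54558 and 35883 CPM, and its part in the result was not tested beyond the scalings.

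Short transcripts in general had low ratios. The members have a median transcript length of 918 bases, against 3165 for the other genes tested, and 46 of 85 are shorter than 1000 bases. In macrophage-like cells the 391 other genes of that length had a median log2 ratio of -0.24 and the members -0.22. In osteoclast-like cells the medians were -0.11 and -0.06, and in neutrophil-like cells -0.15 and -0.13. Members this short thus lay close to, or above, other genes of their length in these 3 classes. Between 1000 and 2000 bases the members had a lower median than the other genes in 6 classes, at -0.25 (26 members) against -0.08 in macrophage-like cells. In osteoclast-like cells they were at -0.055 (27 members) against -0.015. In B cell-like cells their median was higher, at -0.06 (25 members) against -0.14. The 10 members of 2000 to 4000 bases had medians of 0.09 in osteoclast-like and -0.06 in macrophage-like cells, against 0.06 and 0.03 for the other genes. The 77 mitochondrial ribosomal proteins had a summed ratio of 0.944 in osteoclast-like and 0.822 in macrophage-like cells, and the cytosolic ones of 0.922 and 0.809. The part of length in the members' ratios was not tested further.

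In osteoclast-like cells 14 of 21 citric acid cycle genes were above 1, close to the 65.5% of all genes tested, with a summed ratio of 1.05, from Mpc1, a subunit of the pyruvate carrier, at 88.8 and 101 CPM, a ratio of 0.881, to Cs, citrate synthase, at 175 and 151 CPM, a ratio of 1.16. Of 20 regulators of mitochondrial biogenesis 18 were above 1, against the same share of all genes, with a summed ratio of 1.07. These lists hold genes with at least 2 CPM, whereas the shares of all genes are over genes with at least 20 CPM. Carriers of ADP, ATP and phosphate had a summed ratio of 1.03, from Slc25a4, at 273 and 306 CPM, a ratio of 0.892, to Slc25a5, at 655 and 607 CPM, a ratio of 1.08. Assembly factors other than the members had one of 1.004, with Taco1, which aids translation of a complex IV subunit, highest at 137 and 95.2 CPM, a ratio of 1.44. Glycolysis genes had one of 0.961. No gene of these lists was 1.5-fold higher or lower in this class. In macrophage-like cells 17 of 21 citric acid cycle genes were below 1, where 48.5% of all genes were, with a summed ratio of 0.916.

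Within the osteoclast-like class cluster 8 stood apart from the other 3 clusters, whose summed members were at 27641 to 28207 CPM with DHT and 28381 to 28989 CPM with vehicle. Cluster 8 (274 DHT and 555 Vehicle cells) had Acp5, the tartrate-resistant acid phosphatase of osteoclasts, at 1741 and 1557 CPM, and clusters 1, 2 and 4 had it at 313 to 414 CPM with DHT and 246 to 294 CPM with vehicle. Members summed to 37084 CPM in cluster 8 and 27992 CPM in the other 3 in the DHT library, and to 37659.5 and 28637 CPM in the Vehicle library, a fold of 1.32 and 1.32. The cluster was singled out after its values were seen, and the folds are a description, since the cluster was formed on these same cells, from genes other than the members.

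Nearly all members shared in this. In the DHT library 82 of 85 were above 1 (48.9% of all genes) and 14 at least 1.5-fold higher (8.94%), and in the Vehicle library 83 (47.6%) and 9 (8.58%). Complex III had folds of 1.48 and 1.46 in the DHT and Vehicle libraries, complex II of 1.47 and 1.43, cytochrome c of 1.43 and 1.43, complex V of 1.31 and 1.298, complex IV of 1.304 and 1.31 and complex I of 1.29 and 1.27. The mitochondrially encoded subunits were at only 1.06 and 1.07. The citric acid cycle was at 1.51 and 1.46, the mitochondrial ribosomal proteins at 1.16 and 1.16 and glycolysis at 0.943 and 0.915.

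**Figure D4:**
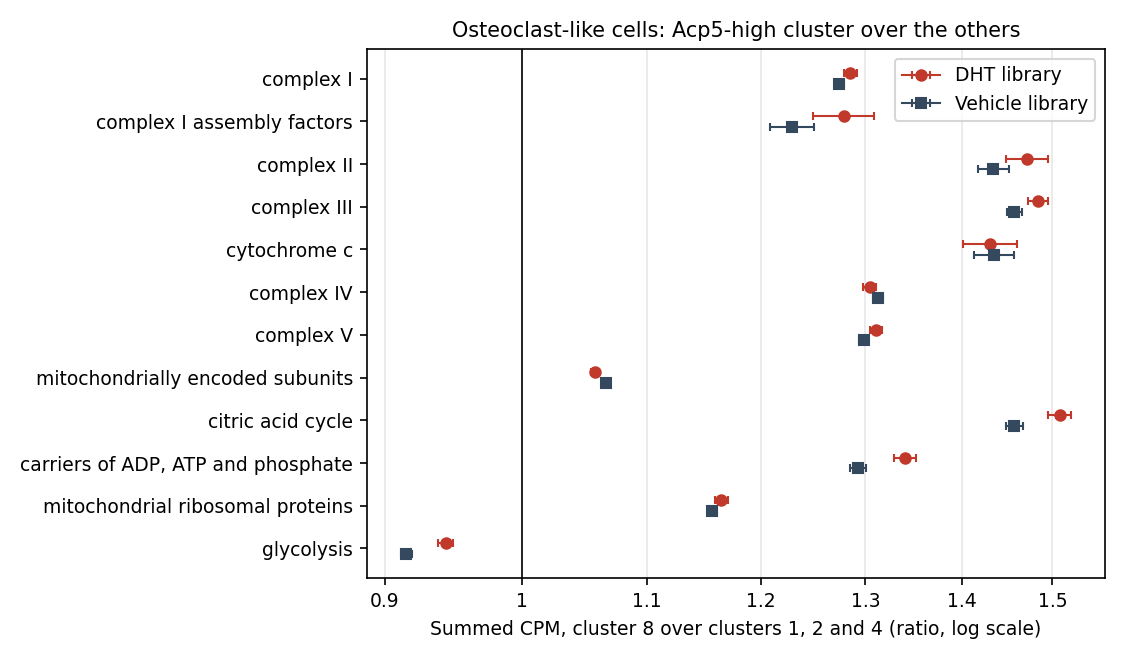
Ratio of summed CPM in osteoclast-like cluster 8 over clusters 1, 2 and 4, within each library, by complex and for other lists, with intervals for counting error. All complexes lie above 1, the mitochondrially encoded subunits just above it and glycolysis below it, in both libraries.

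Ndufb10, an accessory subunit of complex I, had the highest folds of the members, 1.72 and 1.67, followed by the assembly factors Ndufaf4, 1.71 and 1.64, and Ndufaf5, 1.67 and 1.61, and by Uqcrfs1, 1.67 and 1.62. The c subunit genes differed here too, with Atp5g3 at 1.63 and 1.58, Atp5g1 at 1.396 and 1.39 and Atp5g2 at 0.9927 and 0.9923. Besides Atp5g2 only Ndufaf2, an assembly factor, was below 1 in both libraries, at 0.861 and 0.902. Cells of cluster 8 also had fewer cell cycle transcripts, with folds of 0.206 and 0.216 for the G2 and M phase list. Ppargc1b, a coactivator of mitochondrial biogenesis, was at 340.4 and 328 CPM in it and at 79.7 to 138 and 72.4 to 122 CPM in the other clusters. Ppargc1b was among the 10 leading genes of cluster 8, so a high level there is no separate observation. The regulators of mitochondrial biogenesis were not higher as a list. Of those tested 9 of 14 were above 1 in the DHT library (48.9% of all genes) and 8 of 13 in the Vehicle library (47.6%). Their summed folds, with Ppargc1b included, were 1.23 and 1.26. Between libraries, 49 of 85 members were below 1 in cluster 8 (34.6% of all genes), 54 of 85 in cluster 1 (38%), 56 of 85 in cluster 2 (40.5%) and 62 of 85 in cluster 4 (31.3%).

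Neutrophil-like cells had the lowest summed level of the 7 classes, at 10884 and 11984 CPM. Each of the 85 members was lower than in osteoclast-like cells in both libraries. The share of all genes that were lower is not given. The 11 neutrophil markers alone took 343910 and 353663 CPM in neutrophil-like cells, against 1101 and 449 CPM in osteoclast-like cells. Such a share lowers the CPM of other genes there, and its part in the members' levels was not tested. The distance varied widely among members. Ndufaf4 was at 3.72 and 5.18 CPM in neutrophil-like cells and 105 and 99.9 CPM in osteoclast-like cells, and Atp5a1 at 108 and 119 CPM and 706 and 647 CPM. At the other end Ndufv3, an accessory subunit of complex I, was at 147 and 148 CPM and 150.2 and 159 CPM, and Ndufa13 at 200.4 and 233 CPM and 210.2 and 253 CPM. By the UMIs of monocyte markers found there, the share of free RNA in neutrophil-like cells was put at 2.97% with DHT and 3.21% with vehicle. These are upper values only if free RNA had the make-up of all barcodes summed, which was not tested.

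The 3 neutrophil-like clusters differed in the same direction in both libraries. Cluster 12, with the granule genes Camp and Ltf among its leading genes, had members at 15144 and 15834 CPM. Cluster 6, also led by granule genes, had them at 9143 and 10084 CPM, and cluster 5, led by Retnlg, with the chemokine receptor Cxcr2, at 7747 and 8702 CPM. The mitochondrially encoded subunits spanned a wider range, at 14495 and 13782 CPM, 8244 and 7835 CPM and 3094 and 3235 CPM. Median UMIs per cell were 31300 in cluster 12, 14608 in cluster 6 and 6731 in cluster 5. The part of depth or of the cell cycle in these levels was not tested. The ratio of DHT to vehicle for members was 0.956 (0.948 to 0.965), 0.907 (0.897 to 0.917) and 0.890 (0.877 to 0.904) in the same order. Within 3 bins of UMIs per cell over the whole class it was 0.807 to 0.964.

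**Figure D5:**
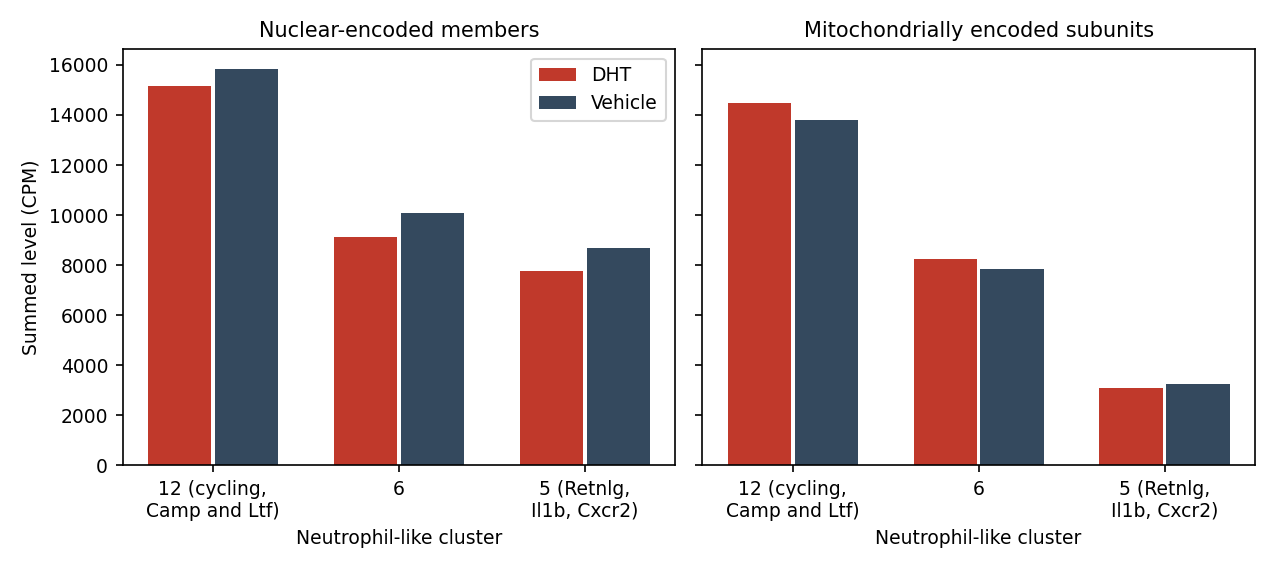
Summed level in CPM of the 85 members and of the mitochondrially encoded subunits in the 3 neutrophil-like clusters, by library. Both are highest in cluster 12, the cycling cluster, and lowest in cluster 5, with the wider range for the mitochondrially encoded subunits.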

How the data were processed

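Single-cell 3′ libraries of 1 DHT and 1 Vehicle culture were analysed. The authors deposited raw UMI counts per gene and barcode. The submitters' processing notes name Cell Ranger 7.0.1, and 2 builds (GRCh38, mm10) with no role given. What called the barcodes, and whether introns and strand counted, was not given in the sources used here. Gene positions came from GENCODE for GRCm38.

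Kept barcodes had 300 genes or more, 800 UMIs or more and no more than 10% mitochondrial UMIs. Scrublet (expected rate 0.08) marked 203 DHT (2.57%) and 156 Vehicle (1.78%) doublets, which were removed. With scanpy 1.11.5 under Python 3.11.15, 2000 variable genes (leaving out members, mitochondrially encoded and interferon-stimulated genes) gave 30 components, 15 neighbours and, with leidenalg 0.10.2, Leiden clusters at resolution 0.6. To be named X-like, a cluster needed markers of X in its top 10, and at least as many as of any other type. It also needed 3 or more, and 50% or more, of the markers of X over 2-fold above the other clusters' median (10 CPM added to each). A tie went to the type with the larger share of markers over 2-fold. Clusters whose median was under 2000 UMIs stayed unnamed. Classes had 100 cells or more per library.

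UMIs were summed per library and class and divided by their total (CPM), not by transcript length. Ratios have exact conditional binomial 95% intervals. Calls are by size, 1.5-fold, in genes that reach 20 CPM; other lists use 2 CPM. Steps were tested on simulated data. Named genes were members past 1.5-fold, the extremes and highest level of each complex in all and osteoclast-like cells, extremes of other lists, and genes set by name; Ndufs8, Ndufb10, Ndufaf2, Ndufaf4, Ndufv3, Atp5d and others of single clusters or classes were picked after their values were seen. The members and lists were chosen with earlier results of these data known. Of the members 12 overlap another gene on the same strand and 28 only on the opposite one. Alternatives were other scalings, depths, cell filters, doublet settings, CPM and fold limits, clusterings and free RNA subtraction; the choices to leave out unnamed clusters or dividing macrophage-like cells were made after seeing the data.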

Additional observations from a re-analysis of the deposited data

Results flagged for a closer look

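Summed over their subunits, 3 steps of the chain lay on opposite sides of 1 in osteoclast-like and macrophage-like cells with intervals for counting error that left out 1 in both. Complex V also lay on opposite sides (1.001 and 0.886), with an interval in osteoclast-like cells that held 1. Complex II had a ratio of DHT to vehicle of 1.07 in osteoclast-like and 0.956 in macrophage-like cells, complex III of 1.005 and 0.858, and cytochrome c of 1.06 and 0.864. With 1 library per group the difference between the classes was not tested, and neither was the part of transcript length in these ratios. In osteoclast-like cells the other scalings took complex III below 1 (0.966 to 0.9976), and left complex II (1.03 to 1.07) and cytochrome c (1.02 to 1.05) above it.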

How the results depend on the processing

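The members' summed ratio was below 1 under every alternative that gave a value, in all cells and in each of the 7 classes. Over all cells (0.912 as reported) it was 0.871 with TMM factors, 0.864 with the median of ratios, 0.895 with a total that leaves out mitochondrially encoded, cytosolic ribosomal protein and Gm42418 UMIs, 0.841 as the mean over each cell's CPM, 0.878 in cells with 10000 to 80000 UMIs, 0.908 without the 10% highest doublet scores, 0.913 with free RNA subtracted and 0.923 with the same weight for each class. In osteoclast-like cells (0.982) it was 0.947, 0.944, 0.974, 0.968 and 0.962 under the first 5 of these, 0.976 and 0.970 at Leiden resolutions 0.3 and 1, and 0.983 with free RNA subtracted. Progenitor-like cells (0.933) were at 0.979 at resolution 0.3. None of the 3 scaling factors moved the median of all genes by over 0.1 on the log2 scale. The causes were not tested.

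At a limit of 25% higher or 20% lower, 24 members were called in macrophage-like, 21 in dendritic cell-like, 14 in B cell-like, 5 in neutrophil-like, 1 in monocyte-like and 1 in progenitor-like cells, all lower but 3 in B cell-like cells. At 1.5-fold 1 was lower in macrophage-like cells with the mean over each cell's CPM and 1 in progenitor-like cells with 10000 to 80000 UMIs. Dendritic cell-like cells had 15 lower without the highest doublet scores, which left 83 DHT cells, and 1 under each of TMM factors, the median of ratios, the reduced total, the mean over each cell's CPM, a 5 CPM limit, 10000 to 80000 UMIs and free RNA subtraction. B cell-like cells (2 as reported) had 4 with the mean over each cell's CPM, 4 with at most 5% mitochondrial UMIs and 1 with a 50 CPM limit; too few had 10000 UMIs for a value. The shares of all genes called at 1.5-fold under these alternatives are not given, so the counts cannot be set against them. No paired analysis was possible because there is 1 library per group, so culture, any difference of animal, and treatment cannot be told apart. Depth is most limiting in B cell-like cells, with 548935 Vehicle UMIs.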

Other observations

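Cox6a2, a complex IV subunit form known from heart and skeletal muscle, was at 1.57 and 1.08 CPM over all cells and so is no member. In the cluster of plasmacytoid dendritic cell-like cells (22 DHT and 15 Vehicle cells) it was at 823 CPM with DHT (325 UMIs) and 1217 CPM with vehicle (240 UMIs). It was no marker and took no part in the clustering. Ndufaf7, an assembly factor of complex I below the 20 CPM limit, was at 31.7 and 32.9 CPM in neutrophil-like and 7.77 and 8.18 CPM in osteoclast-like cells, the reverse of every member. Both genes were picked after their values were seen.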
